A study of Homo sapiens with 40 samples.

Results

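The 44 genes described here encode proteins of the centrosome and of the base of the cilium. They were taken from the 62263 genes of the deposited table by name. Of them 38 carry a symbol made of CEP, for centrosomal protein, and a number, and 6 long-known centrosomal genes (ALMS1, PCNT, NIN, AKAP9, CDK5RAP2 and PCM1) were added. 3 symbols of the same form, CEP164P1, CEP170P1 and CEP19P1, were set aside as names of pseudogenes, and reads of such copies could be shared with CEP164, CEP170 and CEP19. The rule reads names alone, but it was chosen with earlier results of these data known. All 44 genes passed the filter on low counts, and their polysome share, their lengths, their zeros and their levels in the 2 cell lines are given below.

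The centrosome is the main microtubule-organising centre of an animal cell. It holds a pair of centrioles inside a protein matrix, the pericentriolar material, which binds gamma-tubulin and so starts new microtubules. The centrioles duplicate in each cell cycle, the older one carries appendages that dock it to the membrane, and in a resting cell it can form the base of a cilium. Many proteins of this organelle are very large coiled-coil scaffolds with long mRNAs. Polysomes are mRNAs that carry several ribosomes, so RNA recovered with them is a sample of the mRNA being translated.

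The cells were BEAS-2B, an immortalised line of human bronchial epithelium. A control line (shControl) and a line with a constitutive short hairpin against IGF2BP3 (shIGF2BP3), an RNA-binding protein, were compared, each as 1 line, so the hairpin and any other difference between the lines cannot be told apart. The table's columns write siC and siIGF2BP3 for them. Both lines were kept overnight in 2% serum and harvested 24 h after IL-13 at 100 ng/ml, or left unstimulated. From each, input (total) RNA and polysome RNA were sequenced after polyA selection, a method called Frac-seq. This gave 8 groups of 5 libraries: each line, unstimulated or with IL-13, in input or polysome RNA. Nothing in the labels says that the 5 replicates came from separate cultures, so p-values measure only the spread between these libraries, which may be technical.

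Input libraries held between 14044352 and 40441061 estimated counts and polysome libraries between 1816848 and 34082191. 3 polysome libraries of the knockdown line were under 5000000 counts. Levels are given in CPM, a gene's counts relative to the TMM-scaled total of its library. IGF2BP3, the check of the labels, measured 35.2 CPM ± 11.3 in the control line and 24.9 CPM ± 3.02 (SD, n = 5) in the line labelled knockdown in unstimulated input, with overlapping libraries and an adjusted p of 1 in edgeR, so every direction given for the knockdown line rests on its label. In unstimulated polysome RNA mean IGF2BP3 was 11.2 CPM in the control line and 11.2 CPM in the knockdown line (log2 difference -0.10). With IL-13 the polysome means were 10.6 and 9.15 CPM (-0.15), and neither difference was called. The epithelial keratins KRT7, KRT8 and KRT18 were at 101 CPM or more in every library, while the epithelial markers EPCAM and CDH1 had input medians of 0.409 and 0.599 CPM. Of the 8 markers of multiciliated cells, which amplify centrioles, DEUP1 and CCDC39 were listed at 0 in all 40 libraries. FOXJ1 was at most 0.939 CPM, while CCNO and MCIDAS had input medians of 4.29 and 2.33 CPM. The nuclear RNAs MALAT1 and NEAT1 fell from input medians of 55.1 and 70.4 CPM to polysome medians of 12.2 and 16.5 CPM.

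To show how the coding regions of these genes differ, 120 coding bases are given from the middle of the longest coding exon of 4 of them, 5′ to 3′ on the coding strand, from the GRCh38 reference with GENCODE v29 exons. Capitals mark G or C at the third position of a codon. CEP350 (chr1:180093555-180093674, plus strand) had the lowest polysome share of all 44 genes. CEP170 (chr1:243165143-243165262, minus strand) and CEP170B (chr14:104887066-104887185, plus strand) are paralogs of nearly equal length, with polysome means at 15.7% and 46.3% of their input means. CEP55 (chr10:93517030-93517149, plus strand) has 1392 coding bases, near the median of 1410 over all genes with a GENCODE v29 coding length. It had a polysome median of 111 CPM beside an input median of 88.8 CPM.
CEP350: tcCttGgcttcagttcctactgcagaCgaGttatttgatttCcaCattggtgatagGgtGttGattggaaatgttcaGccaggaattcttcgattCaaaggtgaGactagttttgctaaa
CEP170: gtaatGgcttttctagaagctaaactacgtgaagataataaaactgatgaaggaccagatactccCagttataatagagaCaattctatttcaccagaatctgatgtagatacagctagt
CEP170B: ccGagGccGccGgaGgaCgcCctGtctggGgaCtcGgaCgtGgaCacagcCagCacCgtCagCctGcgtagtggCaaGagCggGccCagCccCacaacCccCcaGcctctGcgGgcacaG
CEP55: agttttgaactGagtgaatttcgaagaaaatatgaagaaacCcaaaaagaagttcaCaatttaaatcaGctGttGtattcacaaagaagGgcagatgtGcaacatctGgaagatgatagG
Of the 40 codons in each window, 12 ended in G or C in CEP350, 3 in CEP170, 33 in CEP170B and 10 in CEP55.

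Polysome RNA was compared with input within each line and treatment, over all 16735 genes that passed the filter, with edgeR's quasi-likelihood test and Benjamini-Hochberg adjustment, calling a gene at an adjusted p under 0.05. A lower CPM is a lower share of a library. Between lines or treatments, fewer cells with the mRNA cannot be told apart from less mRNA per cell. Without IL-13, control cells had 19 of the 44 genes called lower in polysome RNA, where 22.8% of all genes tested were called lower. With IL-13, 22 were called lower in the control line, against 22.6% of all genes. In the knockdown line 17 were called lower unstimulated and 19 with IL-13, against 22.0% and 23.3% of all genes. None of the 44 was called higher in any of the 4 comparisons, where 17.4%, 16.7%, 16.4% and 16.0% of all genes were. In other settings CEP41 (unstimulated knockdown line), CEP43 (control line) and CEP55 (knockdown line with IL-13) were called higher: CEP41 at 0.51 with DESeq2 size factors (edgeR adjusted p = 0.0228), and CEP55 at 0.91 without the 3 libraries under 5000000 counts (0.0333). The median log2 difference of the 44 genes was -1.28, -1.04, -0.79 and -1.0 in these 4 comparisons, beside -0.20, -0.19, -0.20 and -0.23 over all genes. Without the 3 libraries under 5000000 counts, the genes called were 20 and 22 in the control line and 17 and 16 in the knockdown line, the latter each with 1 gene higher, CEP41 and CEP55.

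The 15 genes called lower in all 4 comparisons were CEP350, ALMS1, CEP192, PCNT, CDK5RAP2, CEP170, PCM1, CEP152, CEP250, CEP295, CEP164, CEP95, CEP85, CEP131 and CEP170B. They were 34.1% of the 44, and 16.2% of all genes were called lower in all 4. A further 12 were called lower in 1 to 3 comparisons and 17 in none. In 6 genes, CDK5RAP2, CEP131, CEP164, CEP85, PCM1 and PCNT, all 20 input libraries were above all 20 polysome libraries, as in 7.15% of all genes. The reverse held for none of the 44 and for 4.48% of all genes.

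**Figure D1:**
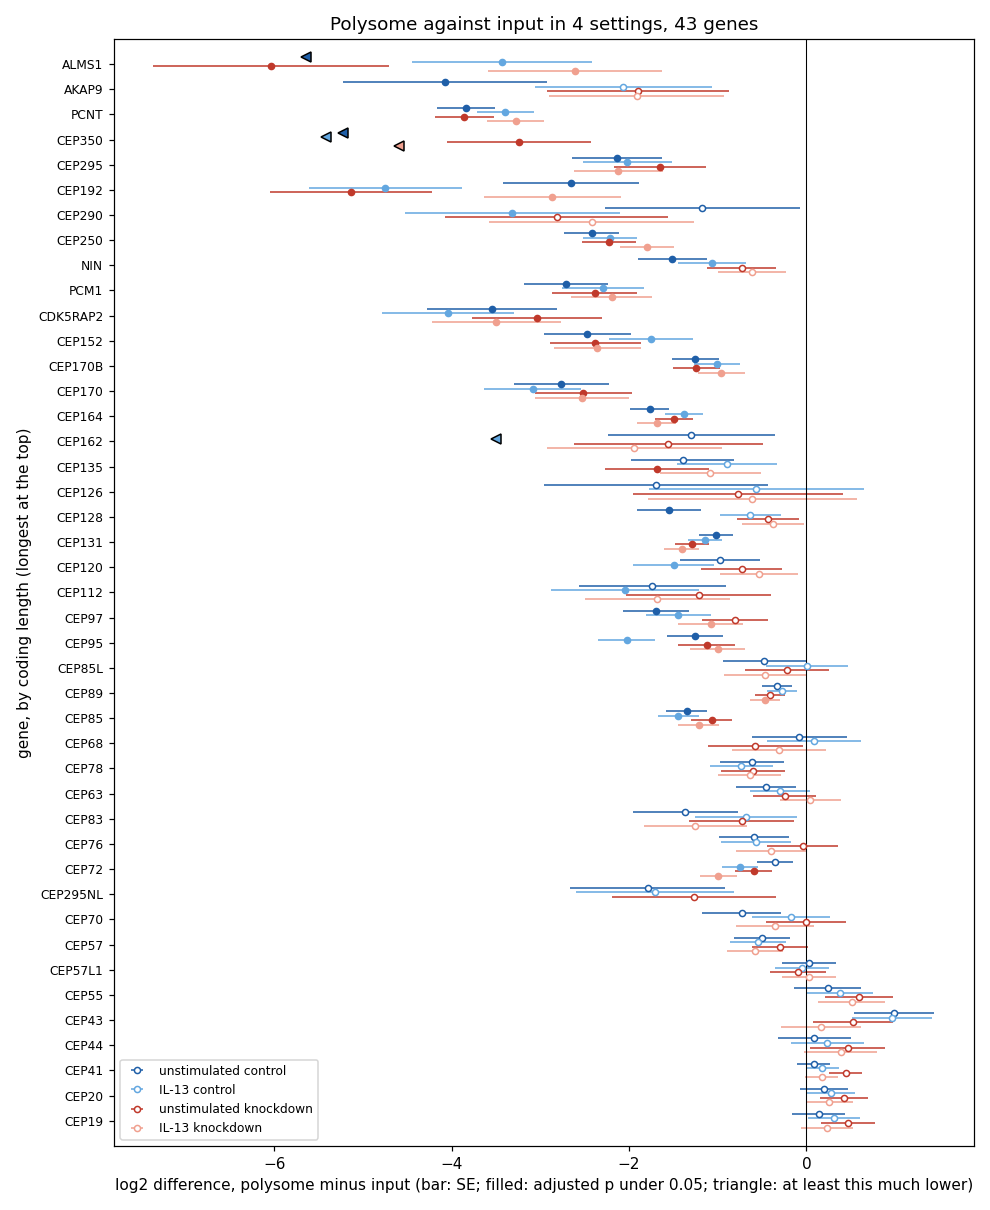
Log2 difference between polysome and input RNA (horizontal axis) for 43 centrosomal genes, ordered by coding length with the longest at the top, in the 4 combinations of line and treatment. Bars are the SE, filled points have an adjusted p under 0.05, and triangles give the smallest decrease that a floor of 3 counts per library allows; CEP295NL with IL-13 in the knockdown line is not drawn, since its input level is under that floor. The longest genes lie to the left and the 6 shortest to the right of 0.

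Among the scaffolds of the pericentriolar material, all 5 genes (PCNT, CDK5RAP2, AKAP9, CEP192 and CEP152) were called lower in unstimulated control cells and 4 of 5 in each other comparison. Between 22.0% and 23.3% of all genes were called lower in the 4 comparisons. The scaffolds are long genes, and as a list they were not compared with other genes of like length. Further below, the centrosomal genes of each length class, scaffolds included, are set beside all genes of that class. Their median log2 difference was -3.55 in unstimulated control cells and between -3.39 and -2.87 in the others. PCNT encodes pericentrin, the long scaffold that ties gamma-tubulin complexes to the centrioles. Over replicates 1 to 5, input PCNT was 31.5, 90.7, 70.2, 35.7 and 70.1 CPM in unstimulated control cells, 69.5, 63.9, 18.8, 63.7 and 30.5 in the control line with IL-13, 61.5, 79.1, 80.8, 78.4 and 68.7 in the unstimulated knockdown line, and 47.5, 61.8, 63.8, 78.1 and 62.3 in the knockdown line with IL-13. Polysome PCNT was 4.49, 4.64, 6.55, 3.07 and 1.90 CPM in unstimulated control cells, 6.07, 3.39, 3.81, 5.27 and 5.10 in the control line with IL-13, 4.74, 6.57, 4.23, 5.58 and 3.42 in the unstimulated knockdown line, and 7.25, 5.06, 7.61, 5.31 and 7.37 in the knockdown line with IL-13. No polysome library exceeded 7.61 CPM and no input library was under 18.8 CPM. The log2 difference was -3.84 ± 0.33 (SE) in unstimulated control cells (edgeR adjusted p = 8.95e-12) and between -3.86 and -3.28 in the 4 comparisons.

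CDK5RAP2 recruits and activates the gamma-tubulin ring complex. Input CDK5RAP2 was 55.6, 109, 127, 91.6 and 69.0 CPM in unstimulated control cells, 81.9, 100, 73.8, 64.1 and 52.2 in the control line with IL-13, 90.4, 86.1, 98.9, 92.6 and 90.8 in the unstimulated knockdown line, and 76.4, 98.4, 102, 118 and 92.0 in the knockdown line with IL-13. Polysome CDK5RAP2 was 8.46, 5.00, 14.7, 4.64 and 5.69 CPM in unstimulated control cells, 0, 1.19, 10.5, 7.24 and 2.61 in the control line with IL-13, 0, 16.3, 4.40, 8.49 and 30.8 in the unstimulated knockdown line, and 16.3, 0, 12.9, 7.27 and 5.63 in the knockdown line with IL-13. The highest polysome value, 30.8 CPM, rested on 63 counts in a library of 1816848 and was still under the lowest input value, 52.2 CPM. The log2 differences were -3.55 ± 0.73, -4.04 ± 0.75, -3.04 ± 0.73 and -3.49 ± 0.73 (SE) in control cells without and with IL-13 and in the knockdown line without and with it, each called.

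AKAP9 anchors signalling enzymes and microtubule nucleation factors at the centrosome and the Golgi. Input AKAP9 was 5.39, 6.84, 4.11, 4.33 and 8.15 CPM in unstimulated control cells, 2.74, 6.78, 2.56, 7.01 and 6.35 in the control line with IL-13, 4.46, 8.93, 7.69, 4.73 and 5.09 in the unstimulated knockdown line, and 6.64, 5.49, 4.88, 7.74 and 4.85 in the knockdown line with IL-13. Polysome AKAP9 was 0, 1.82, 0, 0 and 0 CPM in unstimulated control cells, 0, 0.220, 2.54, 0 and 3.48 in the control line with IL-13, 0, 0.954, 0.114, 3.80 and 3.91 in the unstimulated knockdown line, and 1.09, 2.89, 3.15, 0 and 0 in the knockdown line with IL-13. The ranges of input and polysome libraries overlapped, since 5 of the polysome values lay above the lowest input value of 2.56 CPM. In unstimulated control cells, where 1 polysome library had counts, the log2 difference was -4.08 ± 1.15 (SE, edgeR adjusted p = 0.00404). In the other 3 comparisons it was -2.06, -1.90 and -1.91 and was not called, with adjusted p-values of 0.101, 0.145 and 0.125.

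CEP192 brings the kinases Aurora A and PLK4 to the centrosome, and CEP152 is a receptor for PLK4 on the centriole. Input CEP192 was 8.96, 20.6, 39.6, 21.1 and 16.3 CPM in unstimulated control cells, 14.1, 31.6, 29.4, 19.4 and 3.77 in the control line with IL-13, 34.9, 20.5, 19.9, 23.9 and 27.3 in the unstimulated knockdown line, and 15.8, 30.9, 27.2, 27.2 and 15.8 in the knockdown line with IL-13. Polysome CEP192 was 1.25, 5.00, 7.24, 2.48 and 0.557 CPM in unstimulated control cells, 0.325, 0.176, 1.17, 1.24 and 0.434 in the control line with IL-13, 0, 2.24, 0.457, 0 and 0 in the unstimulated knockdown line, and 8.48, 1.58, 4.54, 0 and 0 in the knockdown line with IL-13. Polysome CEP192 was below all input libraries of the same line and treatment in each of the 4 comparisons. It was at 0 in 5 libraries, all of the knockdown line, and among these were the 3 libraries under 5000000 counts. Its log2 difference was -2.66 ± 0.77, -4.75 ± 0.86, -5.13 ± 0.92 and -2.87 ± 0.77 (SE), called in each. CEP152 had a polysome median of 1.33 CPM and an input median of 6.98 CPM over 20 libraries each, and was called lower in all 4 comparisons by log2 differences between -2.47 and -1.76.

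Of 10 genes of centriole duplication and assembly, CEP192 and CEP152 among them, 5, 6, 5 and 5 were called lower in the 4 comparisons. The shares over all genes were 22.8%, 22.6%, 22.0% and 23.3%. CEP295, needed to turn a new centriole into a centrosome, was called in all 4 by log2 differences between -2.14 and -1.65, and CEP85, a partner of the duplication factor STIL, by -1.44 to -1.07. CEP97, which caps growing centrioles, was called in 3 of 4 (with IL-13 in the knockdown line a call lost in 2 of 19 other settings). CEP120, a centriole elongation factor, was called with IL-13 in the control line alone, lost in 1 of 19 other settings. CEP135, of the centriole cartwheel, was called only in the unstimulated knockdown line, lost in 4 of 19. CEP44, CEP63 and CEP76 were called in none, with 4-comparison means of 0.29, -0.24 and -0.40. CEP76 had a polysome median of 10.2 CPM and an input median of 13.3 CPM.

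Of 6 appendage genes 4, 3, 2 and 3 were called lower, beside 22.8%, 22.6%, 22.0% and 23.3% of all genes. CEP128, of the subdistal appendages, was called in unstimulated control cells alone, by -1.55 ± 0.36 (SE, edgeR adjusted p = 0.000550). CEP164, which links the distal appendages to cilium formation, fell in all 4 comparisons by log2 differences between -1.77 and -1.38. It measured 21.1 to 48.3 CPM in the 20 input libraries and 6.35 to 16.3 CPM in the 20 polysome libraries, which did not overlap. The distal appendage genes CEP83 and CEP89 had 4-comparison means of -1.01 and -0.37. CEP83 was not called and CEP89 was called with IL-13 in the knockdown line by -0.47 (edgeR adjusted p = 0.0271), a call lost in 10 of 19 other settings.

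NIN encodes ninein, the subdistal appendage protein that anchors microtubules. Input NIN was 32.5, 47.2, 51.2, 25.6 and 36.1 CPM in unstimulated control cells, 40.2, 34.9, 39.3, 32.8 and 20.0 in the control line with IL-13, 38.6, 41.7, 50.5, 33.3 and 40.2 in the unstimulated knockdown line, and 31.2, 29.6, 55.2, 43.8 and 27.5 in the knockdown line with IL-13. Polysome NIN was 6.37, 21.7, 23.6, 4.55 and 11.1 CPM in unstimulated control cells, 14.4, 5.86, 26.5, 8.88 and 24.7 in the control line with IL-13, 15.5, 34.5, 14.6, 20.2 and 40.1 in the unstimulated knockdown line, and 43.9, 16.4, 29.4, 16.2 and 15.6 in the knockdown line with IL-13. Its polysome mean was 52.5% of its input mean, and libraries of the 2 fractions overlapped. Its log2 difference was -1.51 ± 0.39 and -1.06 ± 0.39 (SE) in control cells without and with IL-13 (edgeR adjusted p = 0.00187 and 0.0263), and -0.73 and -0.61 in the knockdown line, not called (0.140 and 0.217). The IL-13 control call was lost in 6 of 19 other settings.

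CEP170, also of the subdistal appendages, and CEP170B have relative effective lengths of 2.60 and 2.58 and coding lengths of 4752 and 4770 bases. Input CEP170 was 23.1, 35.4, 44.9, 29.8 and 27.7 CPM in unstimulated control cells, 24.5, 33.8, 34.2, 23.7 and 13.2 in the control line with IL-13, 35.0, 28.0, 34.3, 25.2 and 28.2 in the unstimulated knockdown line, and 25.6, 29.2, 40.0, 29.6 and 31.7 in the knockdown line with IL-13. Polysome CEP170 was 3.55, 8.09, 8.65, 1.22 and 2.12 CPM in unstimulated control cells, 1.3, 0.132, 3.61, 4.03 and 6.30 in the control line with IL-13, 1.5, 7.69, 2.57, 3.00 and 14.2 in the unstimulated knockdown line, and 8.07, 4.98, 7.30, 3.28 and 2.17 in the knockdown line with IL-13. All polysome values but 1 (14.2 CPM, 29 counts) were under the lowest input value of 13.2 CPM. Input CEP170B was 121, 77.2, 78.4, 70.4 and 87.8 CPM in unstimulated control cells, 85.7, 77.6, 66.5, 91.7 and 71.3 in the control line with IL-13, 75.6, 84.0, 70.6, 96.1 and 83.0 in the unstimulated knockdown line, and 85.8, 84.2, 65.6, 85.6 and 84.3 in the knockdown line with IL-13. Polysome CEP170B was 62.2, 30.2, 21.2, 36.4 and 32.6 CPM in unstimulated control cells, 25.1, 56.1, 41.9, 38.9 and 32.8 in the control line with IL-13, 38.7, 27.2, 44.8, 45.8 and 14.2 in the unstimulated knockdown line, and 24.8, 38.3, 32.5, 41.9 and 74.5 in the knockdown line with IL-13. CEP170B was thus at 46.3% and CEP170 at 15.7% of the input mean. The log2 differences of CEP170 were -2.76 ± 0.54, -3.09 ± 0.55, -2.52 ± 0.55 and -2.53 ± 0.53 (SE), and those of CEP170B -1.25 ± 0.26, -1.01 ± 0.26, -1.24 ± 0.26 and -0.96 ± 0.26. The difference between the paralogs was not tested. Over the whole coding sequence 32.7% of codons have G or C at the third position in CEP170 and 79.3% in CEP170B, and the windows printed above differ the same way.

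Of 10 genes of satellites, the transition zone and the cilium 3, 6, 4 and 4 were called lower, beside 22.8%, 22.6%, 22.0% and 23.3% of all genes. PCM1, which builds the centriolar satellites, fell in all 4. Input PCM1 was 22.1, 29.9, 37.2, 23.4 and 20.3 CPM in unstimulated control cells, 25.2, 30.3, 34.5, 21.7 and 22.2 in the control line with IL-13, 24.4, 24.8, 33.6, 30.6 and 31.5 in the unstimulated knockdown line, and 25.9, 23.9, 28.5, 31.4 and 20.1 in the knockdown line with IL-13. Polysome PCM1 was 1.57, 6.09, 6.50, 1.98 and 4.12 CPM in unstimulated control cells, 4.88, 1.32, 5.84, 1.38 and 14.7 in the control line with IL-13, 3.74, 6.90, 3.37, 3.52 and 12.2 in the unstimulated knockdown line, and 9.24, 2.65, 8.69, 4.60 and 1.73 in the knockdown line with IL-13. The fractions did not overlap, with a highest polysome value of 14.7 CPM and a lowest input value of 20.1 CPM. Its log2 differences were -2.71 ± 0.47, -2.29 ± 0.46, -2.39 ± 0.48 and -2.20 ± 0.46 (SE). CEP131, another satellite protein, fell in all 4 by -1.41 to -1.02. CEP72 was called in 3, of which the unstimulated knockdown call was lost in 3 of 19 other settings, and CEP78 in none. CEP41 and CEP19, with coding lengths of 1119 and 501 bases, had 4-comparison means of 0.22 and 0.29.

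ALMS1, a very large protein at the base of centrioles and cilia, was the gene with the longest coding sequence, 12504 bases. Input ALMS1 was 9.85, 19.9, 19.8, 5.67 and 5.25 CPM in unstimulated control cells, 12.1, 15.3, 8.90, 9.83 and 0 in the control line with IL-13, 10.1, 9.25, 12.5, 11.9 and 4.12 in the unstimulated knockdown line, and 7.51, 12.4, 14.0, 12.8 and 6.42 in the knockdown line with IL-13. Polysome ALMS1 was 0 in all 5 libraries in unstimulated control cells, 0, 0, 3.14, 0.647 and 0 CPM in the control line with IL-13, 0, 0.505, 0, 0 and 0 in the unstimulated knockdown line, and 4.32, 1.31, 2.24, 0 and 0 in the knockdown line with IL-13. It was at 0 in 14 of 20 polysome libraries and in 1 of 20 input libraries, replicate 5 of the control line with IL-13. In unstimulated control cells it was at least 49.85-fold lower in polysome RNA, against a floor of 3 counts per library. With IL-13 its log2 difference was -3.43 ± 1.01 in the control line and -2.61 ± 0.98 (SE) in the knockdown line (edgeR adjusted p = 0.00668 and 0.0322), the latter lost in 8 of 19 other settings. In the unstimulated knockdown line the fitted -6.04 ± 1.33 rested on 9 counts in replicate 2.

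CEP290 gates the transition zone of the cilium. Input CEP290 was 1.21, 0.418, 2.28, 0.494 and 2.12 CPM in unstimulated control cells, 0, 2.06, 4.13, 0.304 and 0.482 in the control line with IL-13, 2.18, 0, 0.132, 0.486 and 4.06 in the unstimulated knockdown line, and 1.66, 1.73, 0.702, 0.953 and 2.71 in the knockdown line with IL-13. Polysome CEP290 was 0, 0.727, 1.26, 0 and 0.892 CPM in unstimulated control cells, 0, 0, 0.2, 0.353 and 0 in the control line with IL-13, 0, 0.168, 0.400, 0.141 and 0 in the unstimulated knockdown line, and 0.526, 0, 0.596, 0.0966 and 0 in the knockdown line with IL-13. Both fractions were low and overlapped. It was called only with IL-13 in the control line, by -3.32 ± 1.21 (SE, edgeR adjusted p = 0.0268), a call lost in 8 of 19 other settings. Its coding sequence has 7443 bases, yet its relative effective length was 0.794 in input and 0.390 in polysome RNA, below that of a median gene, while CEP192, with 7611 coding bases, had 3.07 and 3.05. With the effective length as an offset the unstimulated control difference of CEP290 turned from -1.17 to 0.34, neither called.

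CEP162, which tethers transition zone proteins to microtubules, had an input median of 1.95 CPM. Input CEP162 was 3.03, 2.15, 1.35, 2.88 and 1.3 CPM in unstimulated control cells, 1.48, 2.76, 2.74, 1.75 and 2.28 in the control line with IL-13, 1.28, 1.99, 3.86, 2.32 and 1.45 in the unstimulated knockdown line, and 0.830, 1.80, 1.91, 2.02 and 1.28 in the knockdown line with IL-13. Polysome CEP162 was 0, 0.909, 1.68, 1.58 and 0 CPM in unstimulated control cells, 0 in all 5 libraries in the control line with IL-13, 0, 0, 0.400, 0.281 and 4.89 in the unstimulated knockdown line, and 0.826, 0, 0.937, 0 and 0 in the knockdown line with IL-13. It was listed at 0 in all 5 polysome libraries of the control line with IL-13, at least 11.3-fold lower than in input, and called there. In the other 3 comparisons it was not called, with adjusted p-values of 0.288, 0.265 and 0.120. The 4.89 CPM in the unstimulated knockdown line came from 10 counts.

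Of 6 genes of anchoring, linking and other roles, CEP350 and CEP250 were called lower in all 4 comparisons and CEP43, CEP68, CEP55 and CEP57 in none. Over all genes 16.2% were called lower in all 4. CEP350 anchors microtubules and brings CEP43 to the centrosome. Input CEP350 was 2.93, 12.2, 15.5, 8.17 and 6.48 CPM in unstimulated control cells, 10.2, 9.15, 6.66, 9.19 and 6.14 in the control line with IL-13, 15.9, 7.45, 13.9, 7.97 and 11.3 in the unstimulated knockdown line, and 7.76, 9.22, 6.42, 10.3 and 7.78 in the knockdown line with IL-13. Polysome CEP350 was 0 in all 5 libraries in unstimulated control cells, 0 in all 5 libraries in the control line with IL-13, 0, 0, 0, 4.74 and 0 CPM in the unstimulated knockdown line, and 0 in all 5 libraries in the knockdown line with IL-13. In input it was counted in all 20 libraries, with at least 82 counts. In polysome RNA 19 of 20 libraries held none, where its input mean would give between 18.9 and 325 counts per library, with a median of 170. The exception was replicate 4 of the unstimulated knockdown line, with 101 counts (4.74 CPM). CEP350 was at least 37.3-fold lower in polysome RNA of unstimulated control cells, at least 42.6-fold in the control line with IL-13 and at least 24.2-fold in the knockdown line with IL-13, against a floor of 3 counts per library. In the unstimulated knockdown line the log2 difference was -3.24 ± 0.81 (SE, edgeR adjusted p = 0.00221), with all polysome counts from that 1 library.

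CEP250 encodes C-Nap1, which holds the 2 centrioles of a cell together. It measured 39.2 to 153 CPM in input and 12.8 to 73.2 CPM in polysome libraries, which overlapped only through the 73.2 CPM of 1 knockdown library, with log2 differences of -2.42 ± 0.31, -2.21 ± 0.31, -2.23 ± 0.31 and -1.80 ± 0.30 (SE). CEP55, which recruits the membrane-cutting ESCRT machinery to the midbody at the end of cell division, was the most abundant of the 8 genes of up to 1500 coding bases. It measured 58.2 to 134 CPM in input (median 88.8) and 39.9 to 251 CPM in polysome libraries (median 111). Its log2 differences were 0.24, 0.37, 0.59 and 0.51, none called. CEP43, which acts in ciliogenesis with CEP350, had 0.99 ± 0.45 and 0.97 ± 0.45 (SE) in control cells without and with IL-13 (edgeR adjusted p = 0.0809 and 0.0882). CEP43 was called higher in unstimulated control cells by the DESeq2 Wald test (adjusted p = 0.0440), and CEP41 in the unstimulated knockdown line (0.00873).

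**Figure D2:**
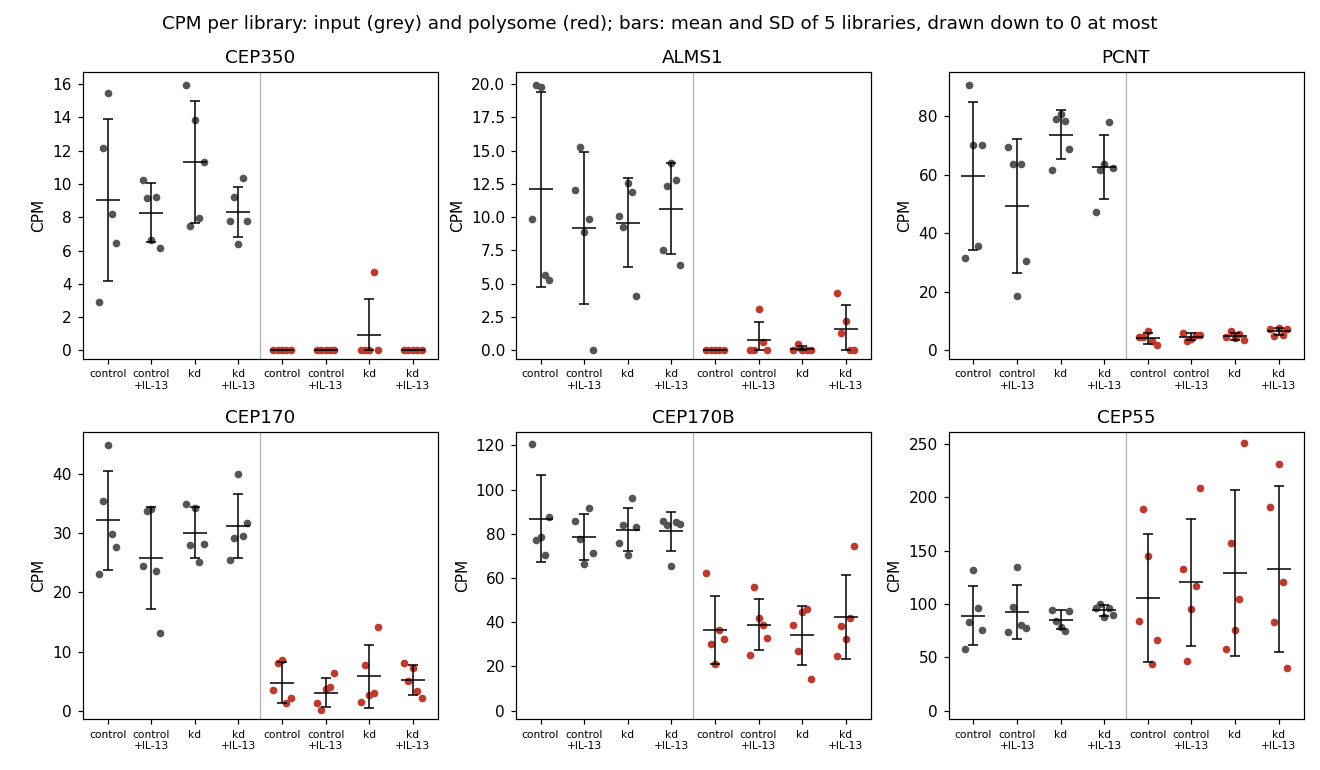
CPM in each library (points) of 6 centrosomal genes in the 8 groups, input in grey and polysome in red, kd for the knockdown line; bars give the mean and SD of 5 libraries, cut at 0. CEP350 and ALMS1 lie at or near 0 in polysome RNA, PCNT and CEP170 are low, CEP170B is about midway and CEP55 overlaps between the fractions.

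The remaining 9 genes stand in none of these role lists. CEP170B and CEP95 fell in all 4 comparisons, CEP95 by -2.03 to -1.0, with the call in the knockdown line with IL-13 lost in 1 of 19 other settings. CEP112 was called with IL-13 in the control line (edgeR adjusted p = 0.0477), lost in 12 of 19 other settings. CEP295NL was called with IL-13 in the knockdown line, where its 5 input libraries held 4 to 15 counts and its polysome libraries none, so no fold is given. CEP126, CEP20, CEP57L1, CEP70 and CEP85L were not called, with 4-comparison means between -0.91 and 0.29.

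Length was then set beside the polysome difference. Effective length is the deposited count divided by TPM, scaled so that the median gene of each library is 1, and describes the transcripts the counts were assigned to. The 44 genes had a median relative effective length of 1.53 in input, beside 0.938 over all genes tested. Their median coding length was 2820 bases, beside 1410 over the 13257 genes tested that had a GENCODE v29 coding length. Long mRNAs were thus common but not general: 7 of the 44 had a relative effective length over 3 and 9 were at or below 1. Across the 44 genes, Spearman's rho between the mean of the 4 polysome differences and effective length was -0.61, and with coding length -0.83. Over all genes tested the values were -0.27 and, for the 13257 with a coding length, -0.46. These are descriptions across genes, which share libraries and are not replicates. The share of G or C at the third codon position had a rho of 0.12 with the polysome difference in the 44 genes and 0.13 over the same 13257 genes. Among genes of at least 10 CPM in input it was -0.09 across 28 of the 44 and 0.10 across 8831 of all genes.

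The 44 genes were also set beside all genes of the same coding length. The 8 genes of up to 1500 coding bases had a median log2 difference of 0.29, beside 0.31 for all 7135 genes of that length. The 16 genes between 1500 and 3000 bases had -0.66, beside -0.36, and the 10 between 3000 and 6000 bases -1.42, beside -1.28. The 10 genes over 6000 bases had -2.46, beside -2.37 for all 349 such genes. All 10 were called lower in at least 1 comparison and 7 in all 4, as were 88.3% and 73.6% of all genes over 6000 bases. By effective length the 7 genes over 3 had a median of -3.59, beside -1.34 for the 752 genes of that class. No test of these class differences was made.

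**Figure D3:**
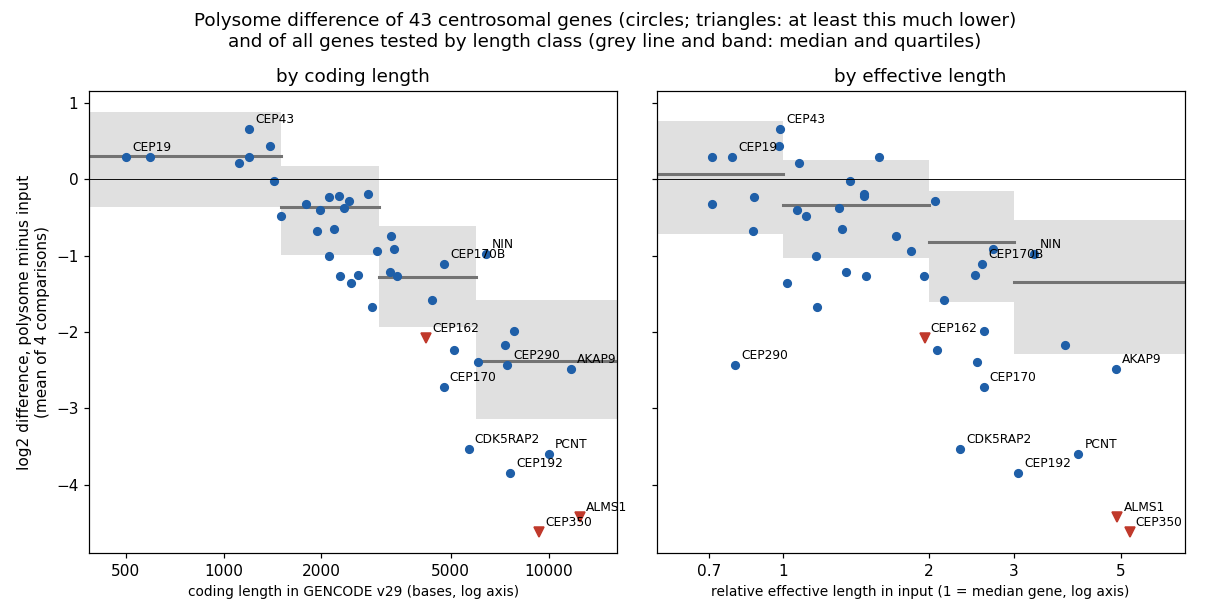
Mean log2 difference between polysome and input RNA over the 4 comparisons (vertical axis) against coding length (left) and relative effective length in input (right), both on log axes. Circles are centrosomal genes, triangles genes with a group at the floor of 3 counts, drawn at the smallest decrease this allows, and the grey line and band are the median and quartiles of all genes tested in each length class; CEP295NL is not drawn. The centrosomal genes descend with coding length from 0.66 for CEP43 to the triangles of ALMS1 and CEP350.

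The relation had the same sign in each polysome library, though libraries of a group share their input mean and so are not separate tests. In the 20 polysome libraries taken singly, against the mean input of their group, rho with effective length ran from -0.82 to -0.53 across the 42 genes of at least 1 CPM in input and from -0.45 to -0.24 across all 13272 such genes. These values used log2(CPM + 0.5). Many genes departed from the length order, and only some are given here. NIN was 9th in coding length and 24th in polysome difference, CEP295 5th and 14th, and CEP170B 13th and 22nd. In the other direction CDK5RAP2 was 11th and 5th, CEP85 28th and 18th, and CEP95 25th and 17th. CEP295NL was 35th and, by a fitted difference that includes a group at 0, 8th. CEP162 was 16th in coding length and 6th by the fitted difference, which includes a group at 0.

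Zeros were concentrated in polysome RNA. Of 880 pairs of a centrosomal gene and a polysome library 12.4% were listed at 0, beside 9.53% over all genes tested, and in input 0.795%, beside 3.07%. Polysome libraries had between 2 and 13 of the 44 genes at 0, with a median of 5, and input libraries between 0 and 2, with none in 15 of 20. The 3 polysome libraries under 5000000 counts had 9, 12 and 13, and the 17 deeper ones 2 to 9. The 17 deeper ones had a median of 5. The part of depth in single zeros was not tested. Of the 42 genes of at least 1 CPM in input, 16 (38.1%) were at 0 in at least 1 polysome library, beside 19.0% of all genes of that level. 3 genes, CEP350, ALMS1 and CEP162, were at 0 in at least 10 polysome libraries (7.14%, beside 1.18%), and the same 3 in all 5 libraries of at least 1 polysome group (7.14%, beside 0.422%). The counts are estimates divided among transcripts by the quantifier, so a listed 0 is an estimate too.

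**Figure D4:**
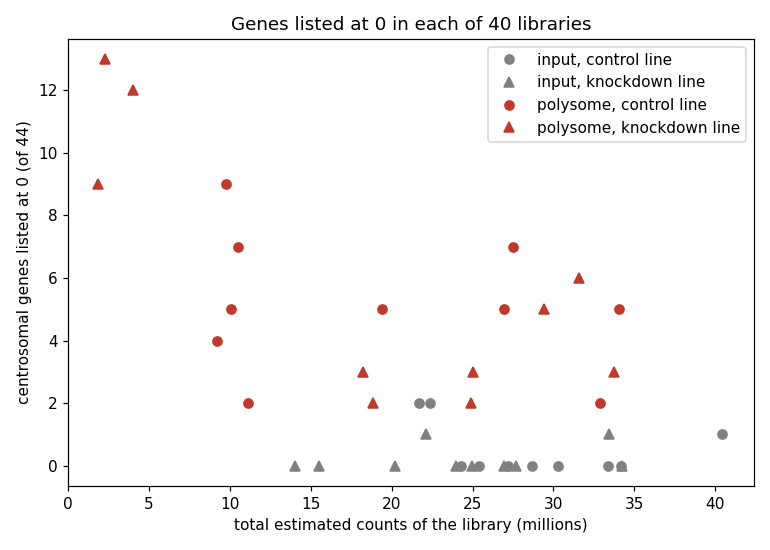
Number of the 44 centrosomal genes listed at 0 (vertical axis) against the total estimated counts of each of the 40 libraries (horizontal axis), input in grey and polysome in red, control line as circles and knockdown line as triangles. Input libraries stay at 0 to 2 at any depth, and polysome libraries range from 2 to 13, the highest being 2 of the 3 shallowest.

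The line labelled knockdown was compared with the control line, within each treatment and averaged over both, so the averages share their libraries with the single comparisons. No centrosomal gene was called in input without IL-13 (0.012% of all genes called), with IL-13 (0.0%) or averaged over both treatments (0.406%). Before adjustment 1, 0 and 1 of the 44 genes had a p under 0.05, beside 497, 502 and 983 of all 16735 genes tested. DESeq2's Wald test called none of the 44, beside 28, 55 and 150 of all genes. The smallest p-values belonged to CEP19, CEP250 and CEP97 without IL-13 (log2 differences of -0.65, 0.44 and -0.42), to CEP250, CEP164 and CEP41 with it (0.54, 0.35 and 0.27), and to CEP250, CEP19 and PCNT averaged over both (0.49, -0.38 and 0.33). CEP250 had an edgeR adjusted p of 0.659 in that average.

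In polysome RNA none of the 44 was called without IL-13 (0.0299% of all genes) or with it (0.0896%). Before adjustment 5 and 6 of the 44 genes had a p under 0.05, beside 1242 and 1660 of all 16735 genes tested. The Wald test of DESeq2 called 1 and 2 of the 44, beside 89 and 144 of all genes. Without IL-13 the smallest p-values were those of CEP350, CEP128 and CEP192, with edgeR adjusted p-values of 0.0844, 0.349 and 0.468. CEP350 differed only through the 1 knockdown library with counts. CEP128 measured 2.71, 3.73, 1.89, 0.992 and 2.79 CPM in control and 5.24, 4.77, 3.20, 4.97 and 8.31 CPM in the knockdown line, which overlapped (log2 difference 1.10 ± 0.37, SE). With IL-13 they were those of CEP295NL, CEP162 and CEP95, with adjusted p-values of 0.111, 0.150 and 0.164. CEP95 was higher in the knockdown line by 1.12 ± 0.32 (SE), and without the 3 libraries under 5000000 counts it was called, at 1.34 (adjusted p = 0.0322).

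Averaged over both treatments 1 gene, CEP250, was called in polysome RNA, where 1.38% of all genes were. Without IL-13 it measured 15.0, 23.2, 15.0, 14.7 and 19.0 CPM in control and 38.4, 27.3, 31.6, 19.9 and 17.1 CPM in the knockdown line. With IL-13 it measured 13.0, 12.8, 16.0, 18.8 and 22.4 CPM in control and 26.2, 23.5, 27.0, 16.0 and 73.2 CPM in the knockdown line. The lines overlapped in both settings, and the 73.2 CPM rested on 169 counts in a library of 2302952. The log2 difference was 0.80 ± 0.21 (SE) with an edgeR adjusted p of 0.0454. Without the 3 libraries under 5000000 counts it was 0.58 (adjusted p = 0.131), and leaving out 1 library at a time lost the call in 13 of 20 fits (adjusted p between 0.0238 and 0.109). The call was kept without unstimulated control replicate 2, IL-13 control replicates 4 or 5, unstimulated knockdown replicates 4 or 5, or IL-13 knockdown replicates 2 or 4. The DESeq2 Wald test called 4 of the 44 genes here, CEP250, CEP128, CEP162 and CEP350, beside 532 of all genes. Of these, CEP350 was at 0 in 19 polysome libraries, and CEP162 in all 5 of the control line with IL-13. After CEP250 the smallest edgeR p-values were those of CEP128 (0.86 ± 0.25, adjusted p = 0.0744) and CEP295NL (adjusted p = 0.0789).

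Whether the line difference shifted from input to polysome RNA was tested as an interaction. No centrosomal gene was called, nor any other gene (0.0% of all genes). Before adjustment 2 of the 44 and 320 of all genes had a p under 0.05, while the Wald test called 1 of the 44 and 13 of all genes. CEP162, CEP295NL and CEP128 had the smallest p-values, each with an edgeR adjusted p of 1. For CEP250 the input difference was 0.49 ± 0.21 and the polysome difference 0.80 ± 0.21 (SE). The 44 genes had a median shift of 0.19, with 30 above 0, beside a median of -0.03 over all genes.

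**Figure D5:**
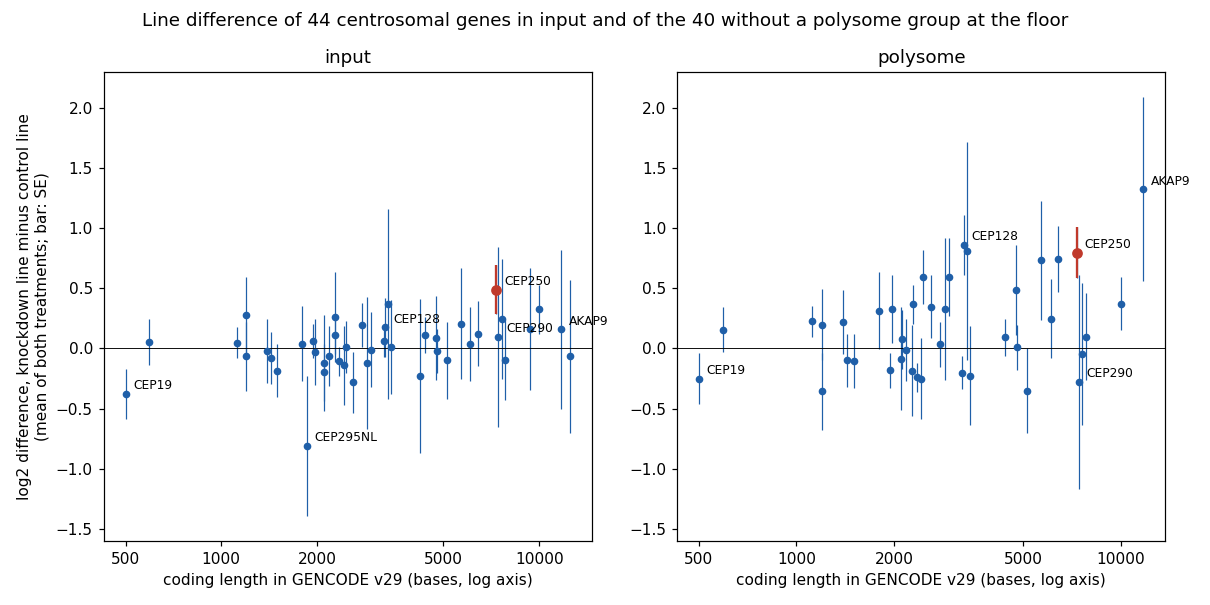
Log2 difference between the knockdown and the control line, averaged over both treatments (vertical axis), against coding length (horizontal log axis), in input for 44 genes and in polysome RNA for the 40 without a polysome group at the floor of 3 counts. Bars are the SE and the red point is CEP250, the only gene called, at 0.80 in polysome RNA.

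IL-13 changed no centrosomal gene by the test in either fraction, averaged over both lines. In input 0.149% of all genes were called and in polysome RNA 0.209%. Before adjustment 0 and 4 of the 44 genes had a p under 0.05, beside 328 and 884 of all 16735 genes tested. DESeq2's Wald test called none of the 44 in input and 3 in polysome RNA, beside 51 and 82 of all genes. The 3 were ALMS1, CEP162 and CEP350, each with polysome groups at 0. The smallest p-values were those of CEP41, PCNT and CEP43 in input (log2 differences of 0.17, -0.25 and 0.40) and of ALMS1, CEP162 and CEP295NL in polysome RNA, with edgeR adjusted p-values of 0.0635, 0.102 and 0.296. ALMS1 had counts in 5 of 10 polysome libraries with IL-13 and in 1 of 10 without it.

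Other centrosome genes, from lists of known components, had calls in both directions in polysome RNA of unstimulated control cells, where 17.4% of all genes were called higher and 22.8% lower. Of 17 further genes of centriole duplication 3 were called higher, a share near that of all genes, and 8 lower, with a median of -0.68. The large proteins WDR90 and STIL fell by log2 differences of -2.30 ± 0.39 and -2.25 ± 0.44, while CETN2, a small calcium-binding centrin, rose by 1.28 ± 0.26 (SE). Of 19 genes of the gamma-tubulin ring and augmin complexes, which nucleate and branch microtubules, 7 rose and 6 fell, with a median of -0.26. HAUS7, TUBG1 and HAUS8 rose by 1.92 ± 0.18, 1.39 ± 0.15 and 1.35 ± 0.15 (SE). Of 20 further genes of appendages, satellites and the linker 2 rose and 7 fell, with a median of -0.61, among them LRRC45 at 1.03 ± 0.21 and ODF2 at -1.20 ± 0.31 (SE). In the other 3 comparisons these lists had 3, 7 and 2 genes called higher, as in unstimulated control cells, and 5 to 7, 5 to 7 and 4 to 7 lower. None of their genes was called for the line or IL-13 averaged over the other factor.

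The genes whose levels across the 40 libraries were most like those of CEP350, among genes of at least 5 CPM in input, were SF3B3, PHKA2, ASXL1, ACTN4 and HUWE1, with Pearson's r of log2(CPM + 1) from 0.955 to 0.960. Libraries of both fractions enter this measure.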

How the data were processed

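40 libraries of BEAS-2B cells were analysed, 5 in each of 8 groups set by line, treatment and RNA fraction, as titled by the submitters. The table deposited by the authors holds estimated counts and TPM (a length-scaled share of transcripts) for 62263 genes, per the file headers. The submitters' processing notes name Trimmomatic, Salmon, MultiQC and DESeq2. Versions, genome build and annotation are not given in the sources used here. Symbols were matched for 62246 gene IDs, and 17 IDs had none. Estimated counts were rounded to whole numbers. Genes were filtered with filterByExpr, which left 16735 genes with at least 99.91% of the counts of each library, scaled by TMM and fitted over all 8 groups with edgeR 4.0.16 (glmQLFit and glmQLFTest) in R 4.3.3, with 32 residual degrees of freedom and Benjamini-Hochberg adjustment over all genes tested, called under 0.05. An SE is the log2 difference divided by the square root of F. The fit was also run on simulated counts with planted changes. No group was planted without counts, so that run does not bear on genes absent from a polysome group.

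Where all 5 polysome libraries of a group held at most 3 counts, the fold is a lower bound, the input mean over the mean CPM that 3 counts per library would give. Effective lengths come from the deposited counts and TPM over 10822 genes with TPM above 0 in every library. Coding lengths and sequences come from GENCODE v29 on GRCh38, in which all 44 genes were found, and which may differ from the annotation behind the counts. Genes given library by library were ALMS1, PCNT, NIN, AKAP9, CDK5RAP2, PCM1, CEP290 and CEP350, those at 0 in all 5 libraries of a polysome group with at least 1 CPM in input, and the 4 called genes of largest mean difference, and in the other comparisons called genes and the 3 of smallest p. CEP170 and CEP170B were added after their values were seen. 1 of the 44 genes is counted but not reported by name here. Members and lists were chosen with earlier results of these data known. The alternatives were DESeq2 1.42.0 (size factors, Wald test), no filter, only the libraries compared, blocks by replicate, a length offset, and fits without shallow libraries, without both unstimulated control libraries numbered 1, or without each library in turn.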

Additional observations from a re-analysis of the deposited data

Results flagged for a closer look

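Of 123 group values of 5 libraries tested over 16 centrosomal genes, 10 had a library far from the others by Dixon's criterion. For normally spread values chance gives about 1 in 20, or 6.2. That rate need not hold for groups with most libraries at 0, so 10 and 6.2 cannot be compared. In 6 of them a polysome library held counts where the others had few or none. CEP350 was at 4.74 CPM (101 counts) in replicate 4 of the unstimulated knockdown line and at 0 in the other libraries of that group. ALMS1 was at 3.14 CPM (94 counts) in replicate 3 of the control line with IL-13, where the others reached 0.647 CPM, and at 0.505 CPM (9 counts) in replicate 2 of the unstimulated knockdown line, where the others were at 0. AKAP9 was at 1.82 CPM (20 counts) in replicate 2 of unstimulated control cells and at 0 in the rest. CEP192 was at 2.24 CPM (40 counts) in replicate 2 of the unstimulated knockdown line, beside at most 0.457 CPM. CEP162 was at 4.89 CPM in replicate 5 of that group, beside at most 0.400 CPM, from 10 counts in a library of 1816848.

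The other 4 were genes with counts in every library. CEP250 was at 73.2 CPM (169 counts) in polysome replicate 5 of the knockdown line with IL-13, beside 16.0 to 27.0 CPM. CEP170B was lowest, at 65.6 CPM, in input replicate 3 of that line and treatment, beside 84.2 to 85.8 CPM. CEP43 was low at 6.06 CPM in input replicate 1 of the same group, beside 16.6 to 20.1 CPM, and at 9.73 CPM (39 counts) in polysome replicate 1 of the unstimulated knockdown line, beside 18.6 to 22.1 CPM.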

How the results depend on the processing

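The counts of centrosomal genes called between polysome and input RNA ranged over the alternatives from 19 to 22 in the control line without and with IL-13, and from 16 to 21 in the knockdown line without and with it. Leaving out 1 library at a time gave 19 to 23, 19 to 23, 16 to 19 and 16 to 22. Of 78 called values, 675 of 701 refits kept the call, 26 lost it and 0 reversed, and with 1 library left out 744 of 790 kept it and 46 lost it. With a replicate block by number the counts were 20, 20, 17 and 20, and by number within line and treatment (the input and polysome library of the same number) 21, 22, 17 and 21. The numbers are not stated to pair the libraries: over 20 such pairs the correlation of deviations from the group means ran from -0.49 to 0.62, with a median of 0.01, and 9 were over 0.1. Line comparisons moved more. In unstimulated polysome RNA 1 gene was called without the filter and 1 by DESeq2, and 0 to 1 with a library left out. With IL-13, 1 was called without the libraries under 5000000 counts, 2 by DESeq2 and 0 with a library left out. Averaged over treatments, the 1 call in polysome RNA became 0 with only the libraries compared, with the replicate block by number, without the libraries under 5000000 counts and with the length offset, 2 without both unstimulated control libraries numbered 1, 4 by DESeq2 and 0 to 3 with a library left out. The shift had 1 by DESeq2. IL-13 in polysome RNA had 1 without the filter, 3 by DESeq2 and 0 to 2 with a library left out. Over all genes, the line calls averaged over treatments were 231 in polysome RNA, beside 37 with only the libraries compared, 140 without the filter, 475 without both unstimulated control libraries numbered 1 and 532 by DESeq2, and 68 in input, beside 226 with only the libraries compared and 150 by DESeq2. Counts of IL-13 calls over all genes were 25 and 35 in input and polysome RNA, beside 51 and 82 by DESeq2, and 38 and 21 with only the libraries compared. Single line comparisons in polysome RNA had 5 and 15 genes, beside 13 and 10 without the filter, 0 and 0 with only the libraries compared, and 89 and 144 by DESeq2. Those in input had 2 and 0, beside 11 and 19 without the filter, 2 and 15 with only the libraries compared, and 28 and 55 by DESeq2. The shift had 0, beside 13 by DESeq2. Spearman's correlation between polysome difference and length was -0.833 in the 44 genes and -0.459 in all genes with coding length, -0.449 and -0.381 with transcript length, and -0.768 and -0.429 with effective length in genes of at least 10 CPM. The all-gene values with coding and transcript length covered the 13257 genes with a GENCODE v29 coding length. Values that changed sign or fell to 0 were not called in the fits where they did so. CEP290 in unstimulated control cells was at 0.338 with the length offset. CEP41 there was at -0.131 without both unstimulated control libraries numbered 1, -0.0775 with the offset and -0.111 without polysome replicate 1, and at -0.0334 with the offset in the control line with IL-13. CEP44 in unstimulated control cells was at -0.194 with the replicate block within line and treatment, -0.00677 without both libraries numbered 1, -0.0131 without input replicate 1, and -0.0876 and -0.281 without polysome replicates 2 and 3, and CEP55 at -0.0735 without polysome replicate 2. CEP43 in the knockdown line with IL-13 was at -0.0894 with the replicate block within line and treatment, -0.0373 without input replicate 1, and -0.059 and -0.228 without polysome replicates 2 and 3. The line difference of CEP350 in unstimulated polysome RNA was 0.0 without its knockdown replicate 4. With a library left out, the highest values of these 5 were 0.237 for CEP41, 0.319 for CEP44 and 0.44 for CEP55 in unstimulated control cells, 0.452 for CEP43 and 8.14 for CEP350. The last was a fitted value against a group at 0, and it was called in that fit (edgeR adjusted p = 0.0450). The all-gene median of the polysome difference lay between -0.33 and -0.28 with the block within line and treatment and between -0.13 and -0.06 without the libraries under 5000000 counts. The causes of these changes were not tested. In the shallowest library, of 1816848 counts, 10 counts are 4.89 CPM, so low genes were not measurable there.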
